A study of Mus musculus with 9 samples.

Results

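The genes described here encode 3 sets of axon guidance cues and their receptors, the ephrin, netrin and Slit systems, measured in neurospheres of adult mouse olfactory bulb stem cells (aOBSCs). The members were all probe sets of the array whose single gene symbol is that of an Eph receptor, an ephrin, a netrin or netrin-G, Dcc, neogenin (Neo1), an Unc5 receptor, a Slit, a Robo receptor or a Slit-Robo GTPase-activating protein (srGAP). This gave 92 of 45037 probe sets, for 43 of 18193 genes. The ephrin system had 21 genes (13 Eph receptors and 8 ephrins), the netrin system 12 and the Slit system 10. The rule used gene names and no measured value, but it was chosen with earlier results of these data known.

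Ephrins are bound to the cell surface, the A class by a lipid anchor and the B class by a membrane-spanning domain, so that they meet Eph receptor tyrosine kinases where cells touch, and both partners then signal into their own cell. Netrins are secreted relatives of laminin that attract growing axons and migrating cells through Dcc and neogenin and repel them through Unc5 receptors. Slits are secreted proteins that repel through Robo receptors, whose cytoplasmic tails recruit srGAPs as partners inside the cell. In the adult brain, ephrins are known as regulators of the stem cell niche below the lateral ventricle, and Slits as guides of the neuroblasts that migrate from there to the olfactory bulb.

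The neurospheres came from adult mice and received FGF-2 and EGF, each at 20 ng/ml, every day (Ctr, an interval of 1 day), every 2 days (C2) or every 4 days (C4). According to the methods, cultures kept with daily addition were divided among the 3 regimes. The cells were passaged further under these regimes before the assays, and RNA was taken from neurospheres after 7 days in culture. All conditions therefore received both factors, and the last addition lay 1 day back in C2 and 3 days back in C4. Each condition had 3 arrays, given as biological replicates. Arrays of different conditions may share a parent culture, which the labels do not show. The study's methods name CD1 and C57Bl/6 mice, and its description of the array experiment gives mice of 7 and 15 months, neither of which is tied to single arrays, so strain and age could not be set against any value. In such bulk cultures, fewer cells with a transcript and less transcript per cell cannot be told apart.

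Values are log2 GCRMA values, so a difference of 1 is a fold of 2, and levels were compared across conditions for 1 probe set at a time. A value of 4 was taken as the floor, and between 40.4% and 40.8% of the probe sets exceeded it on each of the 9 arrays. Markers of neural stem and progenitor cells were above the floor for 9 of 9 measured genes, as the label of the cultures says. Of the astrocyte markers 5 of 7 were above it and of those of the oligodendrocyte lineage 4 of 7. Of the markers of neuroblasts and neurons, 2 of 10 were above it (Gad1 and Map2), of microglia and macrophages 1 of 7 (Cd68), and none of 6 for endothelial cells, of 6 for pericytes and fibroblasts or of 3 for olfactory ensheathing cells.

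Of the 43 guidance genes, 17 had a mean above the floor in at least 1 condition. The ephrin system contributed the ligands Efna2, Efna3 and Efnb1 and the receptors Epha4, Epha5, Epha7, Ephb1 and Ephb3. The netrin system contributed the ligands Ntn1 and Ntn4 and the receptors Dcc, Neo1 and Unc5b. Of the Slit system, Robo1 and all 3 srGAPs (Srgap1, Srgap2 and Srgap3) were above the floor, and none of the 3 Slits was.

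The 26 genes not above the floor also comprised Robo2, Robo3 and Robo4, Ntn3 and Ntn5, both netrin-Gs (Ntng1 and Ntng2), Unc5a, Unc5c and Unc5d, 5 ephrins (Efna1, Efna4, Efna5, Efnb2 and Efnb3) and 8 Eph receptors (Epha1, Epha2, Epha3, Epha6, Epha8, Epha10, Ephb4 and Ephb6). Of all 43 genes, 13 had 1 value on all 9 arrays, Slit1 and Slit3 among them at 2.27. Nearest to the floor were the ephrin-B gene Efnb2, whose means were 3.93 for Ctr, 3.92 for C2 and 3.91 for C4, and Robo2, whose means were 3.46 for Ctr, 3.47 for C2 and 3.71 for C4. The floor of 4 is a chosen cut and no detection call was made, so a value below it does not show that a transcript was absent.

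**Figure D1:**
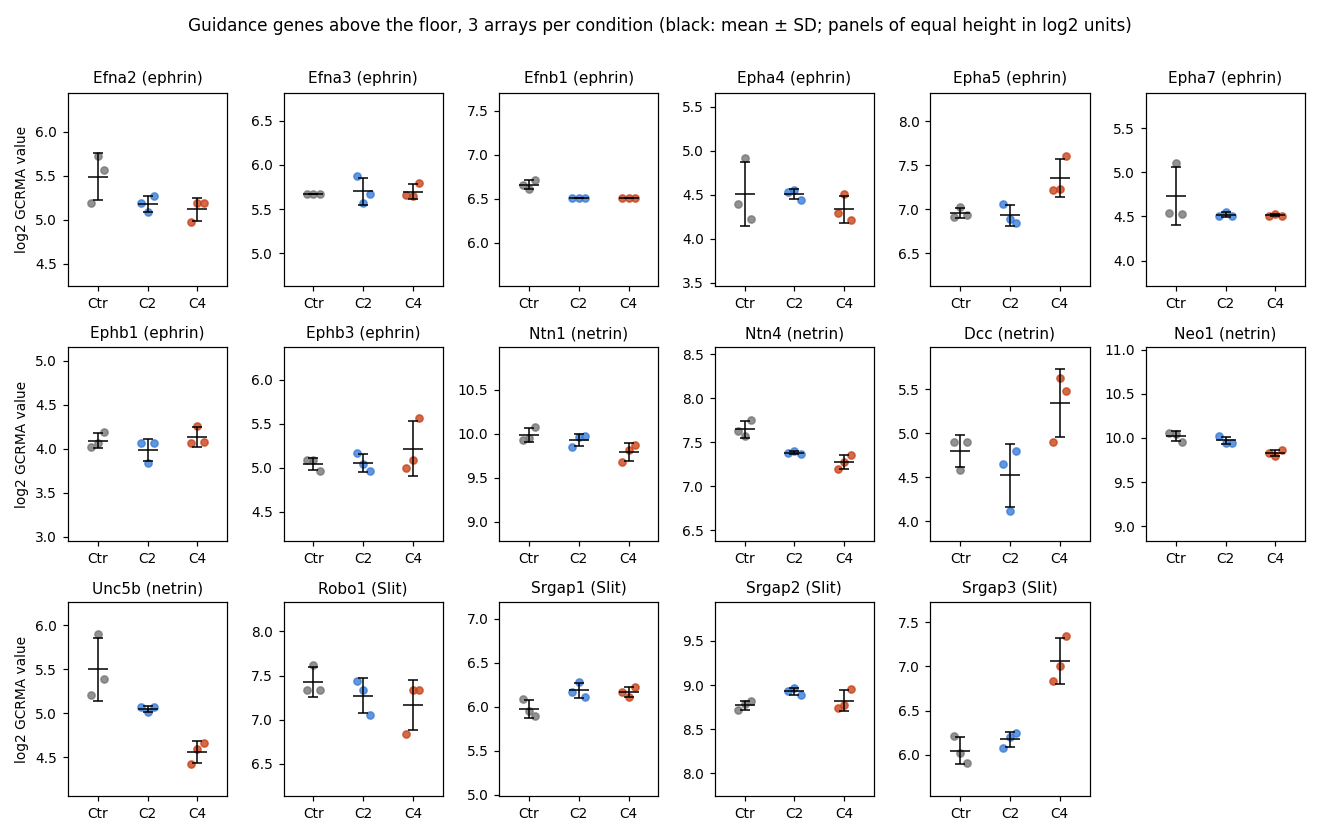
Log2 GCRMA values of the 17 guidance genes above the floor, each read by its probe set of highest mean, on the 3 arrays of Ctr, C2 and C4 (points, with mean and SD in black), in panels of equal height in log2 units. Srgap3 stands apart in C4, where its arrays lie between 6.84 and 7.35, above all Ctr and C2 arrays.

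The first comparison asked what the addition of growth factors every 4 days, instead of daily, changed in these systems. In C4, the srGAP gene Srgap3 rose to a fold of 2.03 over Ctr, and 4 genes fell: the netrin receptor gene Unc5b by a fold of 1.92, the netrin gene Ntn4 by 1.30, Neo1 by 1.14 and the ephrin-B gene Efnb1 by 1.11. Each gene is read here by the probe set with the highest mean, and in that reading the other 38 of the 43 guidance genes did not pass the test, although Epha5 and Dcc had other probe sets that did. The sign for Neo1 turns when the gene is read otherwise, to 0.05 with the mean of its probe sets and to 0.17 without those that can cross-hybridise. The 5 genes called were 11.6% of the members, beside 9.2% of all 18193 genes (limma, Benjamini-Hochberg adjusted p under 0.05 over all 45037 probe sets). With genes below the floor counted, the share of the guidance genes was thus near that of the array as a whole. Of the genes above the floor, 12 of 17 guidance genes were not called, beside 7811 of 9460 for all genes. By direction, 1 member was higher, beside 5.65% of all genes, and 4 were lower, beside 3.55% of all genes. By system, 1 of 21 genes was called in the ephrin system, 3 of 12 in the netrin system and 1 of 10 in the Slit system.

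Counted by probe set, 9 of 92 were called (9.78%, beside 6.29% of all probe sets), 4 higher and 5 lower in C4 than in Ctr. The 3 higher ones beside that of Srgap3 belong to Epha5, with a pair of probe sets, and Dcc, with 1. The median difference was 0 over the 43 genes and over all genes, and over the genes above the floor it was -0.15 for the 17 guidance genes and 0.05 for all genes. The arrays of C4 and Ctr did not overlap for 8 of the 43 genes (18.6%, beside 22.5% of all genes), of which 3 were higher in C4 (Srgap1, Srgap3 and Epha5) and 5 lower (Efnb1, Neo1, Unc5b, Ntn1 and Ntn4). At an unadjusted p under 0.05 stood 9 of the 43 genes, beside 3944 of all 18193 genes. The count of 5 called genes was 3 without Ctr replicate 1, C2 replicate 2, C2 replicate 3 or C4 replicate 1, and 2 without C4 replicate 2. Of the 12 genes above the floor that were not called, 11 had a 95% interval of the difference that lay within -1 and 1, and 5 within -0.5 and 0.5, so that for most of them a 2-fold difference lay outside the interval. The exception in this reading, by the probe set of highest mean, was Dcc. Other probe sets of Epha5 had intervals that reached past 1, 0.57 to 1.07 (1437920_at) and 0.72 to 1.78 (1444690_at).

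**Figure D2:**
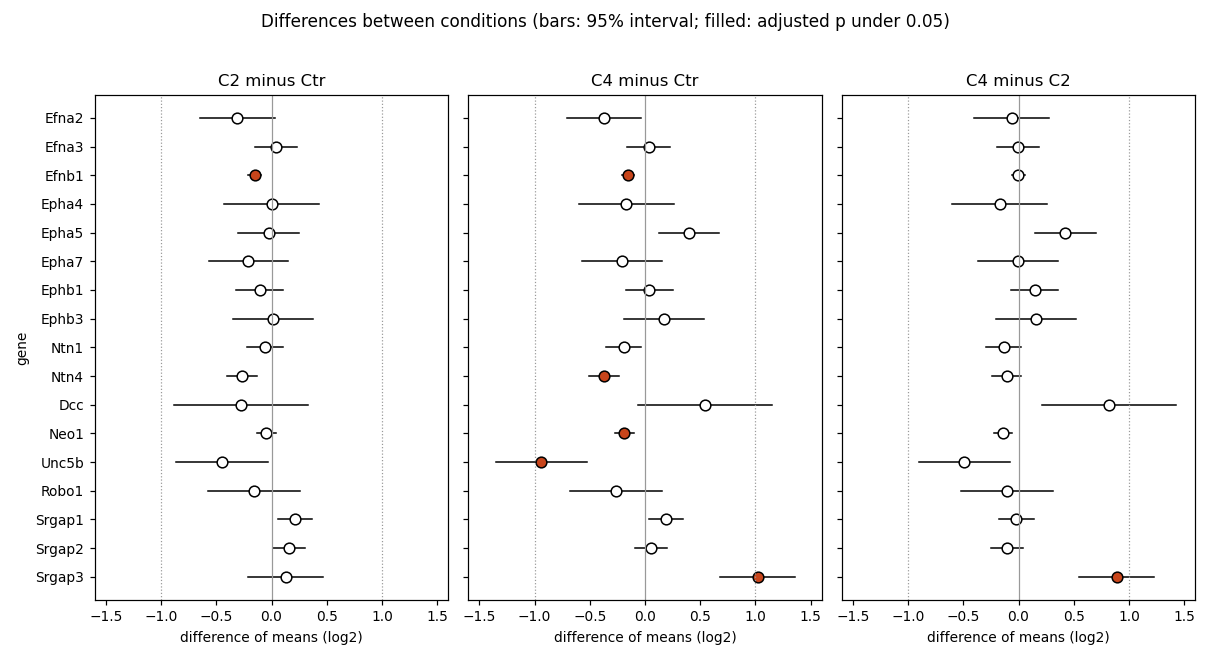
Differences between condition means (log2) for the 17 guidance genes above the floor, with 95% intervals from limma, in the comparisons of C2 with Ctr, C4 with Ctr and C4 with C2, where filled points have an adjusted p under 0.05 and dotted lines mark -1 and 1. Srgap3 at 1.02 and Unc5b at -0.94 lie farthest from 0 in the comparison of C4 with Ctr.

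Promoters are shown for Srgap3, Epha5, Unc5b and Ntn4, an intracellular partner, receptors of the ephrin and netrin systems and a ligand, since the results below turn on these genes and their starts can be read side by side. Each sequence holds 250 bases before and 50 from the RefSeq transcript start (GRCm38.p6), read 5′ to 3′ on the strand of the gene. For Srgap3 and Epha5 this start lies inside the annotated span of the gene. Capitals mark GC boxes (GGGCGG) and ETS cores (CCGGAA) found on either strand, so that matches on the other strand read CCGCCC and TTCCGG, and overlapping matches run together. Srgap3 lies at chr6:112947217-112947516 (minus strand, 1 GC box), Epha5 at chr5:84417333-84417632 (minus strand, 2 GC boxes), Unc5b at chr10:60831532-60831831 (minus strand, 3 GC boxes and 1 ETS core) and Ntn4 at chr10:93640799-93641098 (plus strand, 4 GC boxes).
Srgap3: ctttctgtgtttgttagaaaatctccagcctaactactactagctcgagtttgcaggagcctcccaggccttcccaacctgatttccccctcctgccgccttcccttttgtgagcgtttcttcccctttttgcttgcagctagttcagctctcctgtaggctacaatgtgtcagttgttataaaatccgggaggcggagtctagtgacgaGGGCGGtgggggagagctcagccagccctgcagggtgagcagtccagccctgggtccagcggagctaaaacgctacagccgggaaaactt
Epha5: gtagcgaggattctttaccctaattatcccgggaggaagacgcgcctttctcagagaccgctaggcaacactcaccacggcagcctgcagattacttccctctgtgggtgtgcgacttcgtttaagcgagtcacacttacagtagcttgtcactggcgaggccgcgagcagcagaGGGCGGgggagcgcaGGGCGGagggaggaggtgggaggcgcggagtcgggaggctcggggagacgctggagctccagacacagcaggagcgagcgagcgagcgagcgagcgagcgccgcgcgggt
Unc5b: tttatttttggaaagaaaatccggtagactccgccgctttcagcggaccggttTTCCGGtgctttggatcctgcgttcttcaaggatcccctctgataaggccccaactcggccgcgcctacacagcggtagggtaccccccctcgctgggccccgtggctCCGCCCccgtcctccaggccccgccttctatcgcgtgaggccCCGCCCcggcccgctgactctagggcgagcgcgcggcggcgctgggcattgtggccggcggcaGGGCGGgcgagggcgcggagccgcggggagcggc
Ntn4: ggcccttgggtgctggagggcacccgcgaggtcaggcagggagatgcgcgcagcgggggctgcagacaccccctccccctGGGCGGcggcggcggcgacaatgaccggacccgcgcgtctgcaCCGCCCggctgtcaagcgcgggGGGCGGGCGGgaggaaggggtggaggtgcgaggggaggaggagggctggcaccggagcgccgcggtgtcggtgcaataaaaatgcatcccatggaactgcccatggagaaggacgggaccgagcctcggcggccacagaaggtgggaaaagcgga

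Srgap3 had the fewest CpG dinucleotides of these windows, 10, against 30 in Epha5, 36 in Unc5b and 31 in Ntn4. The RefSeq table held 43 such windows for 38 of the 43 guidance genes, and none for Dcc, Efnb3, Ntn1, Slit1 and Unc5d. A GC box was found in 72.1% of the windows of guidance genes, beside 52.3% of the windows of all genes on the array, and an ETS core in 4.65%, beside 20.9%. The median number of CpG was 20 in windows of guidance genes and 16 in those of all genes on the array. These letters describe the windows and were not tested as binding sites.

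Among the ligands of the ephrin system, Efnb1 (probe set 1418286_a_at, gene at chrX:99136061-99149022 in GRCm38, as for all positions here) encodes ephrin-B1, a membrane-spanning ligand that also signals into its own cell. It stood at 6.66, 6.61 and 6.71 on the Ctr arrays, at 6.50 on all 3 C2 arrays and at 6.50 on all 3 C4 arrays. The Ctr arrays lay above all others, and 5 of the 6 C2 and C4 arrays held 1 value to 3 decimals, so the spread within these conditions was nearly 0. The difference was -0.15 ± 0.02 (SE) in C4 against Ctr (adjusted p = 0.0147) and -0.15 ± 0.02 in C2 against Ctr (adjusted p = 0.0387, the range over the alternatives being 0.0261 to 0.877). The C4 call was lost in 7 of 19 alternatives (adjusted p 0.00785 to 0.545), among them the fits without Ctr replicate 1 (0.0550) and without C4 replicate 2 (0.0533). The C2 call was lost in 14 of 19, among them the fits without Ctr replicate 1 (0.1185), without any 1 C2 array (0.113 to 0.123) and without any 1 C4 array (0.0750 to 0.0754). The other probe sets of Efnb1 (1418285_at and 1451591_a_at) were not above the floor. Over the mean of its probe sets the difference in C4 against Ctr was -0.13 (adjusted p = 0.338).

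Efna2 and Efna3 encode ephrins held by a lipid anchor. Efna2 stood at 5.19, 5.72 and 5.56 in Ctr, at 5.19, 5.08 and 5.27 in C2 and at 4.97, 5.19 and 5.19 in C4. The conditions overlapped, and the difference of -0.37 ± 0.14 (SE) in C4 against Ctr did not pass the test (adjusted p = 0.262). Efna3 differed by 0.03 in C4 against Ctr, with a 95% interval of -0.16 to 0.22, and its value of 5.67 was found on 4 of the 9 arrays. Values repeated on at least 3 arrays were found for 13 of the 31 guidance probe sets above the floor, beside 34.0% of all probe sets over 4, and they make the spread between arrays smaller than 9 separate readings would.

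Epha5 (chr5:84054761-84417818), a receptor tyrosine kinase that binds A-class ephrins, was the only Eph receptor gene with a probe set that passed. Its probe set of highest mean (1435286_at) stood at 6.92, 7.02 and 6.93 in Ctr, at 7.07, 6.89 and 6.84 in C2 and at 7.22, 7.24 and 7.61 in C4. All C4 arrays were above all Ctr and C2 arrays, but the difference of 0.40 ± 0.12 (SE) in C4 against Ctr did not pass the test (adjusted p = 0.123). With only the probe sets over 4 on at least 3 arrays tested, its adjusted p was 0.0292, and over the mean of its probe sets the difference was 0.66 (adjusted p = 0.00222).

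A second Epha5 probe set (1437920_at) stood at 6.79, 6.61 and 6.53 in Ctr, at 6.83, 6.61 and 6.97 in C2 and at 7.38, 7.51 and 7.49 in C4. Another (1444690_at) stood at 5.33, 6.14 and 5.53 in Ctr, at 5.996, 6.27 and 6.26 in C2 and at 6.75, 6.85 and 7.14 in C4. Both were higher on every C4 array than on any other. In C4 against Ctr the second rose by 0.82 ± 0.10 (SE, adjusted p = 0.00650) and the other by 1.25 ± 0.22 (adjusted p = 0.0230), and the fourth (1420557_at) differed by 0.17 ± 0.13 (adjusted p = 0.632). The probe sets of 1 gene thus gave differences of unequal size, 2 past the test and 2 not.

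The other Eph receptor genes above the floor were Epha4, Epha7, Ephb1 and Ephb3, and none passed the test in any comparison. Their differences in C4 against Ctr lay between -0.21 for Epha7 and 0.17 for Ephb3. Epha7 stood at 5.11 on 1 Ctr array and between 4.50 and 4.55 on the other 8 arrays. Ephb3 stood at 5.57 on 1 C4 array and between 4.96 and 5.16 on the others.

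Of the netrin ligands, Ntn4 (chr10:93641049-93745972) encodes a netrin that is built into basement membranes. Its probe set of highest mean (1439794_at) stood at 7.63, 7.57 and 7.75 in Ctr, at 7.38, 7.40 and 7.37 in C2 and at 7.20, 7.28 and 7.35 in C4. All C4 arrays were below all C2 arrays, and all C2 arrays below all Ctr arrays. Ntn4 fell by 0.37 ± 0.06 (SE) in C4 against Ctr (adjusted p = 0.0120, 0.00234 to 0.0810 over the alternatives), a call lost with the robust variance prior (0.0810) and with the arrays of C4 and Ctr alone (0.0715). The difference of -0.27 ± 0.06 in C2 against Ctr did not pass (adjusted p = 0.0898, 0.0315 to 0.445 over the alternatives), nor did that of -0.11 in C4 against C2 (adjusted p = 0.527). A second probe set (1450512_at) differed by -0.11 ± 0.13 in C4 against Ctr (adjusted p = 0.838), so that the fall was seen with 1 of 2 probe sets.

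Ntn1, the classic attractant of commissural axons, stood at 9.93, 9.95 and 10.08 in Ctr, at 9.85, 9.96 and 9.98 in C2 and at 9.68, 9.82 and 9.88 in C4. Every C4 array was below every Ctr array, and the difference of -0.19 ± 0.07 (SE) did not pass the test (adjusted p = 0.209).

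Among the netrin receptors, Unc5b (chr10:60762594-60831581) encodes a receptor that mediates repulsion and, in the developing vasculature, restrains vessel branching. Its probe set of highest mean (1435110_at) stood at 5.20, 5.90 and 5.39 in Ctr, at 5.07, 5.01 and 5.07 in C2 and at 4.42, 4.60 and 4.66 in C4. The second (1453269_at) stood at 5.32, 5.12 and 4.96 in Ctr, at 4.66, 4.77 and 4.92 in C2 and at 4.31, 4.31 and 3.91 in C4. In both, all C4 arrays were below all C2 arrays and all C2 arrays below all Ctr arrays. Unc5b fell by 0.94 ± 0.17 (SE) in C4 against Ctr with the first (adjusted p = 0.0263) and by 0.96 ± 0.15 with the second (adjusted p = 0.0126).

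The call of Unc5b by its probe set of highest mean was lost in 10 of 19 alternatives (adjusted p 0.00134 to 0.117), among them the fit without Ctr replicate 3 (0.0625), without any 1 C2 array (0.0547 to 0.0565) and without any 1 C4 array (0.0623 to 0.0792). Its difference stayed between -1.09 and -0.74. In C2 against Ctr the differences were -0.45 (adjusted p = 0.429) and -0.35 (adjusted p = 0.482), and in C4 against C2 they were -0.49 (adjusted p = 0.246) and -0.60 (adjusted p = 0.0769).

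Dcc encodes the receptor that mediates attraction to netrin. Its probe set of highest mean (1441572_at) stood at 4.90, 4.58 and 4.90 in Ctr, at 4.65, 4.12 and 4.80 in C2 and at 4.90, 5.63 and 5.48 in C4. The C4 arrays overlapped those of Ctr, and the difference of 0.54 ± 0.25 (SE) did not pass (adjusted p = 0.386, 95% interval -0.06 to 1.15). A second probe set (1440487_at) stood at 4.04, 4.45 and 4.55 in Ctr, at 4.43, 4.44 and 4.23 in C2 and at 5.21, 5.33 and 5.73 in C4. With this one all C4 arrays were above all others, and the value rose by 1.08 ± 0.18 in C4 against Ctr (adjusted p = 0.0187). Neither probe set exceeded 5.73 on any array, and over the mean of the 3 probe sets of the gene the difference was 0.51 (adjusted p = 0.0181).

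Neo1 (chr9:58874679-59036614) encodes neogenin, a relative of Dcc that binds netrins and repulsive guidance molecules. Its probe set of highest mean (1447693_s_at) stood at 10.05, 10.05 and 9.96 in Ctr, at 10.02, 9.95 and 9.95 in C2 and at 9.83, 9.80 and 9.87 in C4. Every C4 array was below every other, and the value fell by 0.19 ± 0.04 (SE) in C4 against Ctr (adjusted p = 0.0284). The suffix of this probe set marks probes that can hybridise to more than 1 transcript. The other 3 probe sets above the floor gave 0.17, 0.23 and 0.02 and none passed. Without probe sets of that kind the gene's difference was 0.17 (adjusted p = 0.651), that is, of the opposite sign.

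The call of Neo1 was lost in 12 of 19 alternatives (adjusted p 0.0111 to 0.709), among them the fits without Ctr replicate 1 (0.0944), Ctr replicate 2 (0.102), C2 replicate 2 (0.0545), C2 replicate 3 (0.0521), C4 replicate 1 (0.0778), C4 replicate 2 (0.0943) or C4 replicate 3 (0.0509).

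**Figure D3:**
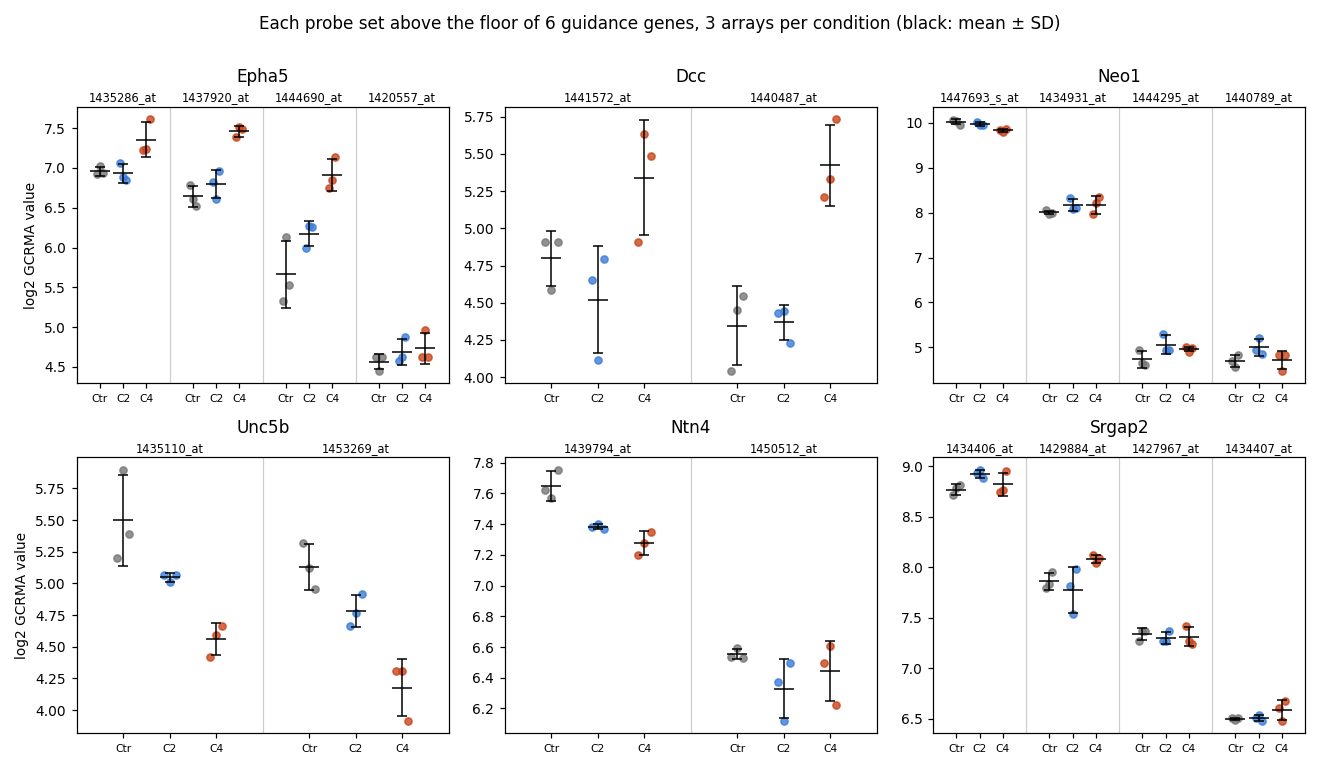
Log2 GCRMA values of each probe set above the floor of Epha5, Dcc, Neo1, Unc5b, Ntn4 and Srgap2 on the 3 arrays of Ctr, C2 and C4 (points, with mean and SD in black). Both probe sets of Unc5b are lowest in C4, whereas those of Epha5, Dcc, Neo1 and Ntn4 differ among themselves in how far C4 lies from Ctr.

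In the Slit system, Robo1, the main Robo receptor gene measured here, stood at 7.33 on 5 of the 9 arrays, and its difference in C4 against Ctr was -0.26 ± 0.17 (SE, adjusted p = 0.632). Srgap3 (chr6:112717971-112947505) encodes an srGAP that acts on Rac and binds the actin regulator WAVE1. It stood at 6.21, 6.02 and 5.91 in Ctr, at 6.08, 6.20 and 6.25 in C2 and at 6.84, 7.01 and 7.35 in C4. Every C4 array was above every other array, and Ctr and C2 overlapped. Srgap3 rose by 1.02 ± 0.14 (SE) in C4 against Ctr (95% interval 0.68 to 1.36, adjusted p = 0.00897, 0.000789 to 0.0556 over the alternatives). Its call was lost only in the fit of the 6 arrays of C4 and Ctr alone. Over the mean of its probe sets, of which the second was at the floor, the difference was 0.51 (adjusted p = 0.00589). It was the only guidance gene with a difference of at least 1 in C4 against Ctr when read by the highest of its probe sets.

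The other srGAP genes did not pass the test. Srgap1 stood at 6.08, 5.95 and 5.89 in Ctr, at 6.17, 6.28 and 6.11 in C2 and at 6.16, 6.11 and 6.23 in C4. The Ctr arrays were lowest, but neither the difference of 0.19 ± 0.06 (SE) in C4 against Ctr (adjusted p = 0.196) nor that of 0.21 ± 0.06 in C2 against Ctr (adjusted p = 0.260) passed. Srgap2 was read by 4 probe sets, with differences between -0.03 and 0.22 in C4 against Ctr, none of which passed.

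The second comparison asked what addition every 2 days changed. In C2 against Ctr, 1 of the 43 genes was called (2.33%, beside 2.52% of all genes), and this was Efnb1, given above. With the filter on low values, median centring or a second quantile normalisation the count was also 1, but the gene was Ntn4 (adjusted p 0.0315 to 0.0389). By probe set, 1 of 92 was called (1.09%, beside 1.7% of all probe sets). Read by the probe set of highest mean, all 16 genes above the floor that were not called had a 95% interval within -1 and 1, and 11 within -0.5 and 0.5. Both comparisons with Ctr used the same 3 Ctr arrays, so their values for a gene are not independent of each other.

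The third comparison, of C4 with C2, also tests whether the differences of C4 and C2 from Ctr are unequal. Of the 43 genes 1 was called (2.33%, beside 7.78% of all genes), and 6 stood at an unadjusted p under 0.05, beside 3569 of all 18193 genes. The gene called was Srgap3, which rose by 0.89 ± 0.14 (SE) in C4 against C2 (adjusted p = 0.0166), a fold of 1.85. This call was lost without C2 replicate 1 (adjusted p = 0.0678), C2 replicate 2 (0.0618) or C4 replicate 2 (0.0518). By probe set, 3 of 92 were called (3.26%, beside 5.25% of all probe sets), all higher in C4: that of Srgap3, the second of Epha5 (0.66 ± 0.10, adjusted p = 0.0165) and the second of Dcc (1.05 ± 0.18, adjusted p = 0.0225).

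Proteins that act with these systems were read from 3 further lists, which held ligands, co-receptors and signalling partners that the names above do not cover. Of 58 partner genes measured, 11 were higher and 6 lower in C4 than in Ctr. This was 29.3% of them, beside 9.2% of all genes, with 51 of the 58 above the floor, beside 9460 of all 18193 genes. Not called among those above the floor were 34 of 51 partners, beside 7811 of 9460 for all genes. The lists were chosen with earlier results of these data known, so the share called is no independent test of the partners. In C2 against Ctr 1 partner was called (1.72%, beside 2.52% of all genes), and in C4 against C2 14 partners were (24.1%, beside 7.78% of all genes).

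Among 24 netrin partners, all above the floor, 6 were higher and 2 lower in C4 (33.3%, beside 9.2% of all genes). Their median difference was 0.21, beside 0.05 for all genes above the floor. Dscaml1, a cell adhesion molecule related to the netrin receptor Dscam, stood at 5.13, 4.95 and 4.99 in Ctr, at 4.99, 4.79 and 5.15 in C2 and at 7.05, 7.38 and 7.24 in C4. All C4 arrays were above all others, and Dscaml1 rose by 2.20 ± 0.12 (SE, adjusted p = 0.000284). The study had picked Dscaml1 on these same arrays. Of the ligands, Flrt2, which binds Unc5 receptors, rose by 1.37 ± 0.16 (adjusted p = 0.00433), Rgma, a neogenin ligand, by 1.05 ± 0.12 (adjusted p = 0.00373), and Lrrc4c, the netrin-G1 ligand, by 0.76 ± 0.07 (adjusted p = 0.00173). Ntng1 itself was not above the floor. Maged1, an adaptor that binds Unc5 receptors, stood at 13.48, 13.44 and 13.50 in Ctr, at 13.31, 13.31 and 13.37 in C2 and at 12.52, 12.61 and 12.70 in C4. It fell by 0.86 ± 0.04 in C4 against Ctr (adjusted p = 0.000241), and every C4 array was below every other. Named after their values were seen, to complete the count, Draxin, a ligand of Dcc, rose by 1.35, Dapk1, a kinase that binds Unc5 receptors, rose by 0.45, and Trim9, a ubiquitin ligase that binds Dcc, fell by 0.79.

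Among 23 ephrin partners, 2 were higher and 3 lower in C4 (21.7%, beside 9.2% of all genes), with a median difference of 0.05. Chn1 encodes alpha-chimaerin, a Rac GTPase-activating protein that acts below EphA4. It stood at 7.68, 7.58 and 7.54 in Ctr, at 7.92, 7.83 and 7.92 in C2 and at 8.24, 8.26 and 8.17 in C4. No 2 conditions overlapped, and Chn1 rose by 0.29 ± 0.05 (SE) in C2 against Ctr (adjusted p = 0.0431), by 0.62 ± 0.05 in C4 against Ctr (adjusted p = 0.000944) and by 0.33 ± 0.05 in C4 against C2 (adjusted p = 0.0108). It was the only partner called in C2 against Ctr. The scaffold gene Pick1 rose by 0.31 in C4 against Ctr. Adam10, a metalloprotease that cleaves ephrins at the cell surface, fell by 0.46 ± 0.05 (adjusted p = 0.00372), Vav3, a guanine nucleotide exchange factor gene, by 0.65, and Rasa1, a Ras GTPase-activating protein, by 0.30.

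Among 17 Slit and Robo partners, 3 were higher and 1 lower in C4 (23.5%, beside 9.2% of all genes), with a median difference of 0. Gpc1, a glypican that binds Slit, stood at 7.58, 7.42 and 7.75 in Ctr, at 7.75, 7.52 and 7.59 in C2 and at 8.30, 8.08 and 8.43 in C4. It rose by 0.69 ± 0.12 (SE) in C4 against Ctr (adjusted p = 0.0221), with every C4 array above every other. Ext1, a polymerase of heparan sulfate, rose by 0.45 (adjusted p = 0.0144) and the sulfotransferase gene Hs2st1 by 0.23 (adjusted p = 0.0259). The sulfotransferase gene Hs6st1 differed by -0.17 (adjusted p = 0.632). Sos2, an exchange factor for Ras, fell by 0.67 (adjusted p = 0.0348).

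**Figure D4:**
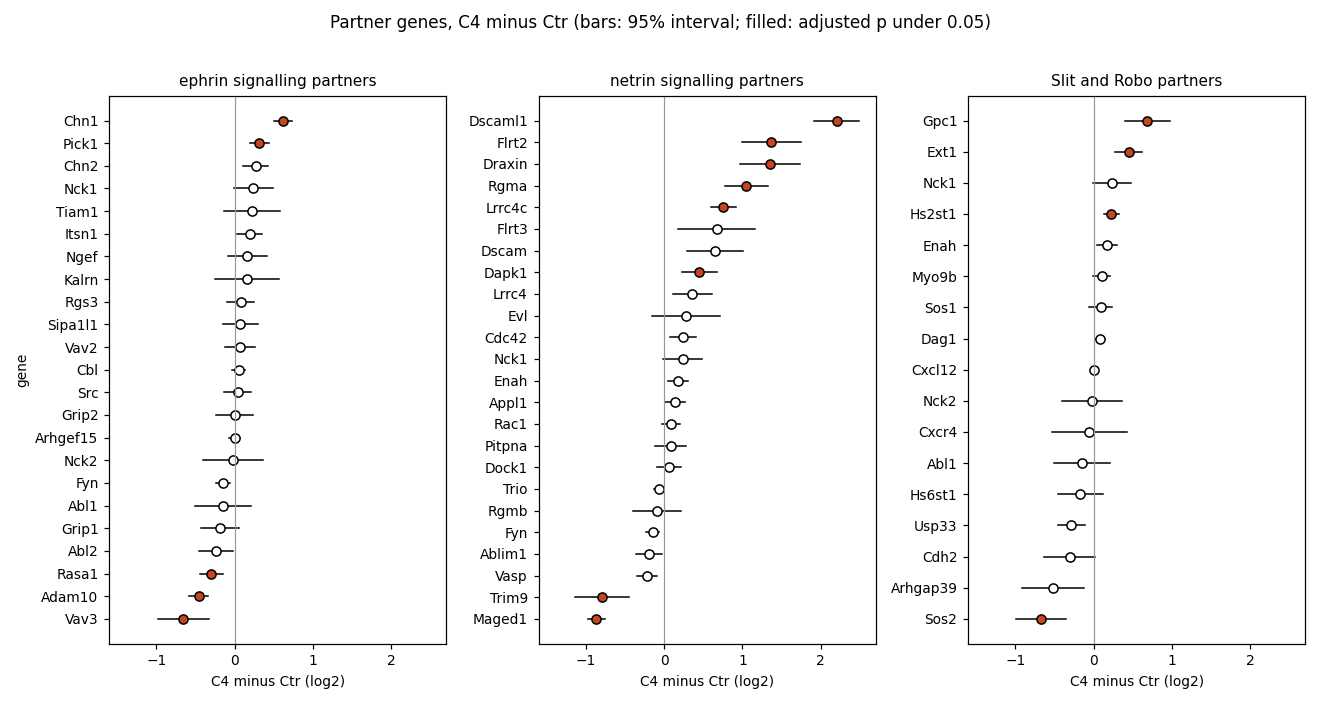
Differences of C4 minus Ctr (log2) for 23 ephrin partners, 24 netrin partners and 17 Slit and Robo partners, with 95% intervals from limma, where filled points have an adjusted p under 0.05. Dscaml1 at 2.20 lies farthest above 0 and Maged1 at -0.86 farthest below it.

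Some cell type markers moved with the same comparison, in which 5.65% of all genes were called higher and 3.55% lower. Of 7 astrocyte markers 3 were higher in C4 than in Ctr (Aqp4, S100b and Aldh1l1), with Gfap and Gjb6 not above the floor, and the summed linear level of the list was 6802 to 7306 on the C4 arrays and 4880 to 5714 on the Ctr arrays. Of 7 markers of the oligodendrocyte lineage 4 were higher (Pdgfra, Cspg4, Gpr17 and Olig1), with Sox10, Mbp and Mog not above the floor, and the summed level was 16830 to 17740 on the C4 arrays and 13690 to 14890 on the Ctr arrays. Cd68 fell by 2.72, and the other 6 markers of microglia and macrophages were not above the floor. Of the 9 progenitor markers 4 were higher and 1 lower, with a summed level of 65130 to 69450 on the C4 arrays and 65190 to 70060 on the Ctr arrays, which overlap. Of the 10 neuroblast and neuron markers Gad1 was lower, and the summed level, 5517 to 6256 on the C4 arrays and 5804 to 5834 on the Ctr arrays, overlapped too. Whether these shifts had a part in the differences of Srgap3, Unc5b or the other guidance genes was not tested.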

How the data were processed

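RNA of aOBSC neurospheres was hybridised to 9 Affymetrix mouse arrays, 3 per condition. The authors made the deposited log2 values with GCRMA, which corrects background by probe sequence, quantile normalises the arrays and summarises the probes of a probe set. Its version is not given in the sources used here. Quantile normalisation forces equal distributions on the arrays, and the background step leaves many dim probe sets at 1 repeated value, which lowers their spread. All deposited arrays were used and no value was changed.

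After removal of 64 controls, 45037 of the 45101 probe sets remained. The platform annotation gives a single symbol for 34945 of them, several symbols for 932 and no symbol for 9160. A gene was read by its probe set of highest mean. One limma fit (limma 3.58.1 under R 4.3.3) held the 9 arrays with a mean for each condition, a variance prior that follows the intensity (6 residual and 0.574 prior degrees of freedom) and Benjamini-Hochberg adjustment over all these probe sets. An adjusted p under 0.05 is a call, and ± gives the SE where SE is written. The procedure was also tried on simulated data. These were drawn independently for each array and without repeated values, so they say nothing about calls that rest on such values. The number of arrays, and no count of reads, limits the precision. Tables and figures were made with Python 3.11.15 and pandas 2.3.3.

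Every member gene could be named. Given in full were members called in at least 1 of the 3 comparisons and those the study names (Dcc, Epha5 and Srgap3), and of each list of partners up to 5 called genes of smallest p. Dcc, Epha5 and Srgap3 had been reported by the study as upregulated in C4 on these same arrays. Members and lists were chosen with earlier results of these data known. Alternatives were a replicate block, each array left out, the 2 conditions alone, a prior without trend or robust, array weights, a filter on low values, median centring, a second quantile normalisation, and other readings of a gene's probe sets.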

Additional observations from a re-analysis of the deposited data

Results flagged for a closer look

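In the test of C4 against C2, 3 of 92 guidance probe sets passed the threshold (3.26%, beside 5.25% of all probe sets). Their differences of C4 and of C2 from Ctr were thus unequal in that fit, and they are given here for this reason. For Srgap3 the difference of C4 from C2 was 0.889 (adjusted p = 0.0166), with 1.02 in C4 against Ctr and 0.13 in C2 against Ctr. This call was lost in 5 of 19 alternatives: with the replicate block (adjusted p = 0.0713), with the 2 conditions alone (0.0663), and without C2 replicate 1 (0.0678), C2 replicate 2 (0.0618) or C4 replicate 2 (0.0518). For the second probe set of Epha5 (1437920_at) it was 0.659 (adjusted p = 0.0165), with 0.82 in C4 against Ctr and 0.16 in C2 against Ctr. For the second probe set of Dcc (1440487_at) it was 1.05 (adjusted p = 0.0225), with 1.08 in C4 against Ctr and 0.02 in C2 against Ctr. In each the 3 C4 arrays lay above the 3 C2 arrays. The study had already listed Srgap3, Epha5 and Dcc among the genes upregulated in C4 against Ctr, on these same arrays. Its rule was a log2 difference of at least 1, a measure unlike the test used here. In C4 against Ctr, Srgap3 (1.02), another probe set of Epha5 (1444690_at, 1.25) and the second of Dcc (1.08) reached that difference. Epha5 and Dcc by their probe sets of highest mean did not pass the test of C4 against C2 (adjusted p = 0.116 and 0.169).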

How the results depend on the processing

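The count of guidance genes called in C4 against Ctr was 5, and was 1 with the robust variance prior, 0 with the arrays of the 2 conditions alone, 1 at a difference of at least 1 and 2 to 4 with 1 array left out. With a gene read by the mean of its probe sets it was also 5, of which Dcc and Epha5 replaced Neo1 and Efnb1. In C4 against C2 the count of 1 became 4 under the filter on low values, 2 with median centring, 4 with the mean of a gene's probe sets, 0 with the 2 conditions alone, 0 at a difference of at least 1 and 0 to 2 with 1 array left out. In C2 against Ctr the count of 1 became 0 with the robust prior, the 2 conditions alone, the mean of probe sets or a difference of at least 1, and 0 to 1 with 1 array left out.

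Over the whole array, 2833 probe sets were called in C4 against Ctr, 1386 with the robust prior, 4697 with the filter, 1618 with the 2 conditions alone and 1818 to 2585 with 1 array left out. For C4 against C2 they were 2363, 1178, 3908, 1404 and 1485 to 2091 in the same order, and for C2 against Ctr 767, 45, 1825, 371 and 323 to 584. Neo1 changed sign in C4 against Ctr with the mean of its probe sets (0.0479, adjusted p = 0.709) and without probe sets that can cross-hybridise (0.17, adjusted p = 0.651). Of the other values of single genes under the alternatives, 334 kept their side of the threshold, 14 came to pass it and 49 no longer passed it. The 334 include values that passed in neither fit, so they do not measure how stable the calls were. Of 19 alternatives, the call in C4 against Ctr was kept in 18 for Srgap3, 17 for Ntn4, 12 for Efnb1, 9 for Unc5b and 7 for Neo1. The call of Srgap3 in C4 against C2 was kept in 14, and that of Efnb1 in C2 against Ctr in 5. The causes were not tested.

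The methods divide cultures among the regimes, so arrays of different conditions may share a parent culture, whereas the main fit took all arrays as independent. Whether replicate numbers pair the samples is not given in the sources used here. Arrays were therefore correlated in their deviations from the condition means. Those of the same number correlated between -0.04 and 0.13 (9 pairs) and others between -0.12 and 0.09 (18 pairs). The ranges overlapped and no clear pairing was seen, but deviations from means of so few arrays cannot exclude it. With the replicate number as a block, guidance genes called were 4 in C4 against Ctr, 0 in C4 against C2 and 0 in C2 against Ctr, and probe sets of the whole array 1996, 1634 and 237 in that order.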
